A study of Homo sapiens with 9 samples.

Results

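The HOX genes examined here were the 38 rows, of 17911 genes counted, whose symbol is HOX followed by a cluster letter from A to D and a number. They comprise 11 members of the HOXA cluster, 9 of HOXB, 9 of HOXC and 9 of HOXD, and HOXB1 was not analysed here. RNA sequencing counts came from 9 libraries. Their labels name the cells as MDA-MB-231, a long-established human line from a triple-negative breast cancer. There were 3 libraries of capsules and 6 of liquid overlay spheroids. The labels describe 3 small and 3 large spheroids, but the names of the spheroid columns give no size. Those columns fall by name into 3 called L.O. and 3 called Sph.WT, and both sets are given throughout because their HOX levels stand far apart. The labels give an identical treatment text for all 9 samples, capsules included: trastuzumab, an antibody against ERBB2, then 5% Matrigel with liquid overlay, and 96 hours before RNA was taken. Cells were grown in RPMI with 10% serum and are given as cell type WT. Nothing in the labels says that replicates were separate cultures, so the p-values measure the spread between these samples, which may be technical.

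HOX genes encode homeodomain transcription factors. They lie in 4 clusters, and within each cluster the paralog number rises from the 3′ end, whose genes are switched on early and anteriorly in the embryo, to the 5′ end, whose genes mark posterior structures. Adult cells and cell lines often keep the set of HOX genes that their tissue of origin used, so the set serves as a code of position. Polycomb complexes hold unused stretches of a cluster silent, trithorax and MLL complexes keep used stretches active, and proteins of the PBX and MEIS families bind DNA together with HOX proteins.

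The labelled cell line was checked first. A list of 20 genes abundant in MDA-MB-231 summed to between 536.4 and 550.8 CPM (counts scaled by the library total) in libraries labelled capsule, 910.6 to 971.5 CPM in L.O. spheroids and 8743 to 8852 CPM in Sph.WT spheroids. In capsules 13 of the 20 reached 1 CPM in every library, in L.O. spheroids 15 and in Sph.WT spheroids all 20. NNMT had no count in any capsule or L.O. library. CDKN2A, which is deleted in MDA-MB-231, averaged 524 ± 43.8 CPM in capsules, 556 ± 122 CPM in L.O. spheroids and 0.716 ± 0.121 CPM in Sph.WT spheroids (SD, n = 3 each). A list of 10 genes reported in HEK293, an embryonic kidney line, summed to between 2703 and 2953 CPM in capsules, 2554 to 2938 CPM in L.O. spheroids and 32.92 to 36.68 CPM in Sph.WT spheroids, where PAX2 and NEFL had no count. The capsule and L.O. libraries therefore go against their label, and "capsules" and "L.O. spheroids" below mean libraries with those labels. The part of these differences in any HOX result was not tested. Rows were present for 3 of 6 immune, 4 of 6 endothelial and 6 of 7 fibroblast markers. Their levels summed to at most 8.605 CPM (immune), 2.649 CPM (endothelial) and 48.05 CPM (fibroblast) in capsules, 13.72, 4.191 and 104.0 CPM in L.O. spheroids, and 51.62, 10.43 and 197.6 CPM in Sph.WT spheroids. Library totals ran from 13212665 to 13735221 counts in capsules, from 15525725 to 15988167 in L.O. spheroids and from 16605098 to 33263076 in Sph.WT spheroids. In bulk libraries, fewer cells that express a gene and less RNA per cell cannot be told apart.

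All 4 HOX clusters were broadly expressed in capsules and in L.O. spheroids and near 0 in Sph.WT spheroids. Summed over the 38 members, the HOX level was 1043, 1037 and 1015 CPM in capsules, 1322, 1373 and 1434 CPM in L.O. spheroids, and 28.48, 26.28 and 30.53 CPM in Sph.WT spheroids. The 3 sets did not overlap. A member was called detected where it reached 1 CPM in every library of a set. By that measure 35 of 38 members were detected in capsules, all 38 in L.O. spheroids and 6 in Sph.WT spheroids. The capsules lacked HOXC12, HOXD1 and HOXD12, all of which passed 0.5 CPM in every capsule library. In Sph.WT spheroids the 6 were HOXA13, HOXB3, HOXB4, HOXB9, HOXD3 and HOXD4, and they were also the members detected in all 6 spheroid libraries. HOXC was the cluster with no member detected in Sph.WT spheroids.

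**Figure D1:**
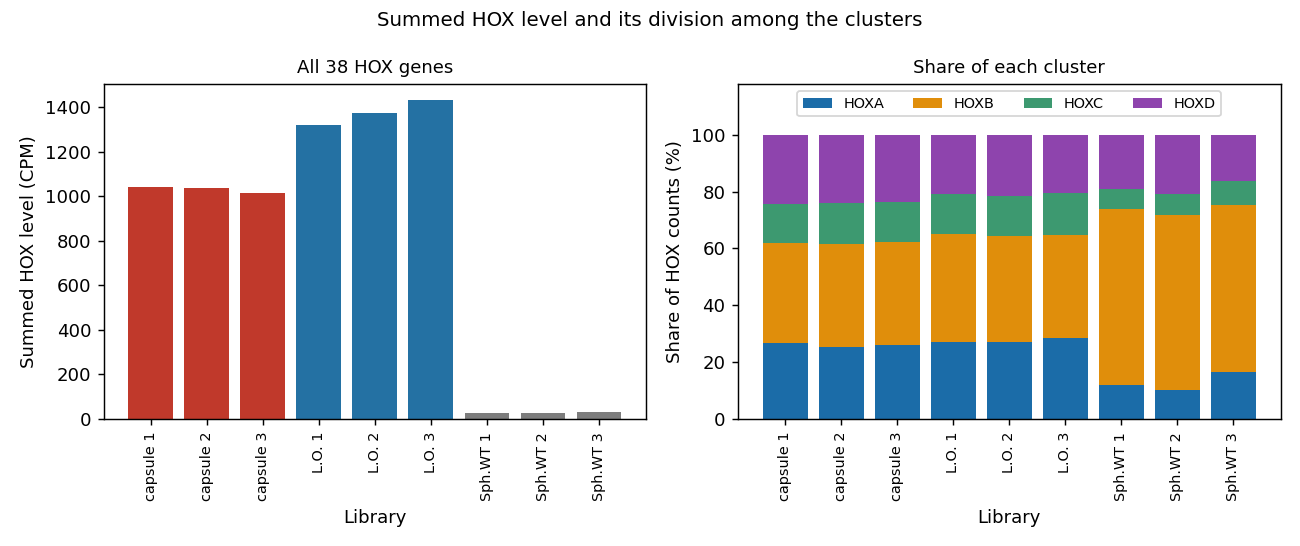
Left, HOX level summed over 38 members (y axis, CPM) in each of 9 libraries (x axis); right, the share of HOX counts that each cluster took (y axis, percent). Bars of capsules stand at 1015 to 1043 CPM, those of L.O. spheroids at 1322 to 1434 CPM and those of Sph.WT spheroids near the axis at 26.28 to 30.53 CPM, where HOXB takes the largest share.

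The clusters shared the total in nearly the same way in capsules and in L.O. spheroids. HOXA took 26.0% ± 0.700 of HOX counts in capsules, 27.6% ± 0.866 in L.O. spheroids and 12.9% ± 3.30 in Sph.WT spheroids. HOXB took 36.0% ± 0.693 of HOX counts in capsules, 37.1% ± 0.802 in L.O. spheroids and 60.8% ± 1.88 in Sph.WT spheroids, the largest share in every set. HOXC took 14.1% ± 0.289 of HOX counts in capsules, 14.3% ± 0.208 in L.O. spheroids and 7.59% ± 0.955 in Sph.WT spheroids. HOXD took 23.9% ± 0.265 of HOX counts in capsules, 21.1% ± 0.551 in L.O. spheroids and 18.7% ± 2.37 in Sph.WT spheroids (SD, n = 3 each). The shares in Sph.WT spheroids lay outside the range of both other sets for HOXA, HOXB and HOXC. Posterior members, with paralog numbers 9 to 13, gave 59.2% ± 0.55 of HOX counts in capsules, 54.5% ± 0.52 in L.O. spheroids and 34.0% ± 3.25 in Sph.WT spheroids (SD, n = 3 each). The anterior members 1 to 3 gave 9.70% ± 0.18, 11.03% ± 0.10 and 42.7% ± 3.12 in the same order of sets. The central members 4 to 8 made up the rest.

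**Figure D2:**
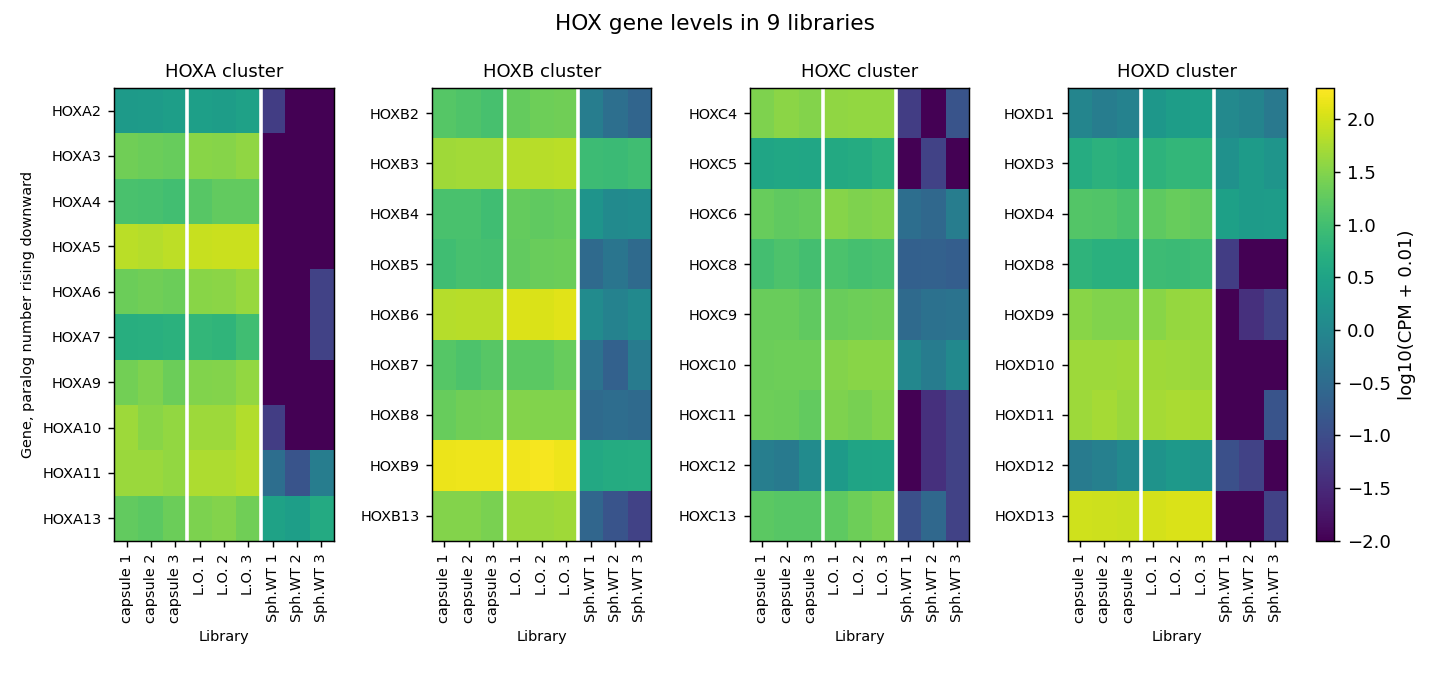
Level of HOX genes, as log10(CPM + 0.01) by colour, in 9 libraries (columns; white lines part the capsules, L.O. and Sph.WT spheroids), with the paralog number rising downward in each cluster. Capsules and L.O. spheroids are coloured along all 4 clusters and dimmest at HOXA2, HOXC12, HOXD1 and HOXD12, while Sph.WT spheroids are dark in most rows and brightest at HOXA13, HOXB3, HOXB4, HOXB9, HOXD3 and HOXD4.

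The comparison set by the design was capsules against all 6 spheroid libraries, tested per gene with edgeR's quasi-likelihood test, TMM scaling and Benjamini-Hochberg adjustment over all genes at a threshold of 0.05. It called 0 of 38 HOX genes, against 3.76% of the 16985 genes tested (639 genes, 2.3% of those tested higher in capsules and 1.47% lower). None of the 38 had an unadjusted p under 0.05, and DESeq2 and limma-voom also called 0. Without any one of the 3 capsule libraries the number of genes called was 0, and without Sph.WT library 1 it was 154, without library 2 240 and without library 3 207; without L.O. library 2 it was 287 and without library 3 409. Fitted log2 fold changes of HOX genes lay between -0.98 for HOXD1 and 1.17 for HOXD10, with standard errors up to 1.96, and adjusted p-values lay between 0.186 and 0.970 by edgeR. The spread that this fit pools was wide, a common biological coefficient of variation of 66.0%, against 7.33% among capsules and L.O. spheroids and 7.32% among capsules and Sph.WT spheroids. For 34 of 38 members the 3 capsule values lay above all Sph.WT values and below all L.O. values. The share of all genes in that position was not computed, so the 34 describe the members only. Because of the wide pooled spread, the 2 sets of spheroids were also compared with capsules one at a time. These comparisons share the 3 capsule libraries.

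Against L.O. spheroids, part of each HOX cluster was lower in capsules. In CPM, 35 of 38 members had all 3 capsule values below all 3 L.O. values, and HOXA2, HOXC8 and HOXD10 overlapped. CPM are scaled by library totals, and on that scale genes in general leaned lower in capsules. The share of all genes with ranges apart was not computed, so the 35 are a description only. By edgeR, 24 of 38 members (63.2%) were lower in capsules at an adjusted p under 0.05 and 0 higher, where 50.1% of the 15919 genes tested were called, 25.4% lower and 24.7% higher. The median log2 fold change was -0.37 over the members and -0.01 over all genes tested. Lower members numbered 8 of 11 in HOXA, 7 of 9 in HOXB, 5 of 9 in HOXC and 4 of 9 in HOXD. Scaled by library totals in place of TMM, 32 members were lower, while the genes tested split into 2275 higher and 5852 lower and the median log2 fold change of all of them moved to -0.16, with that of the members at -0.52. With a 2-fold minimum 3 members were called lower, HOXC12, HOXD1 and HOXD12, where 126 genes were higher and 882 lower in all.

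**Figure D3:**
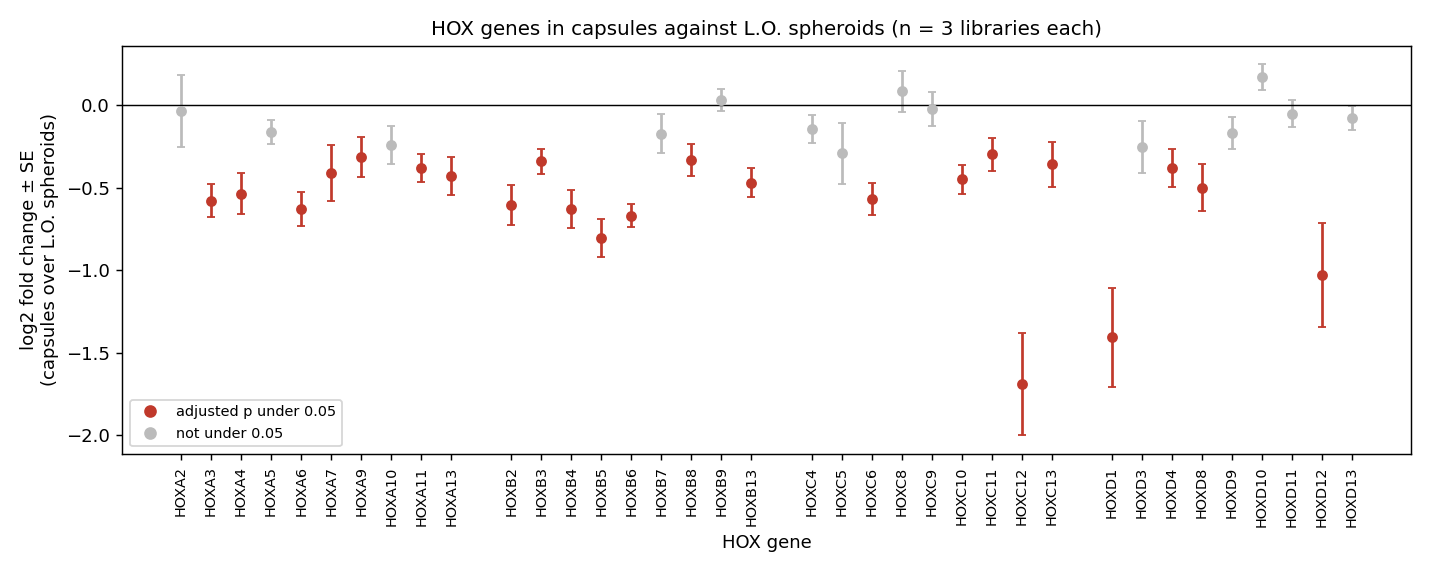
Log2 fold change of HOX genes in capsules over L.O. spheroids (y axis, with an SE derived from edgeR's F statistic, n = 3 libraries each), in red where the adjusted p was under 0.05 and in grey elsewhere. The red points are all below 0, with HOXC12, HOXD1 and HOXD12 lowest at -1.69, -1.41 and -1.03.

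Against Sph.WT spheroids, nearly every HOX gene was higher in capsules. By edgeR 35 of the 36 members that passed the filter on low counts were higher and 0 lower, where 86.1% of the 16157 genes tested were called, 43.2% higher and 42.9% lower. HOXD1 was the exception, and HOXC12 and HOXD12 were filtered out. The 5 members at 0 in Sph.WT spheroids passed that filter only through their capsule counts, as did others near 0 there. Such members could not have come out lower, so their direction is no test result. Fitted log2 fold changes had a median of 6.46 over the 36 members, which was the same with the 5 members at 0 in Sph.WT spheroids set to their lower bound, and 0.01 over all genes tested. Scaled by library totals, the genes tested split into 8202 higher and 5721 lower, the median of all moved to 0.29, and the same 35 members were higher. L.O. spheroids against Sph.WT spheroids gave 38 of 38 members higher, where 85.2% of the 16727 genes tested were called, 43.1% higher and 42.2% lower. In that fit too, members near 0 in Sph.WT spheroids passed the filter only through their L.O. counts. That fit was added after the sets of spheroids were seen to stand apart, and by library totals its genes split into 9116 higher and 5246 lower around a median of 0.43.

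**Figure D4:**
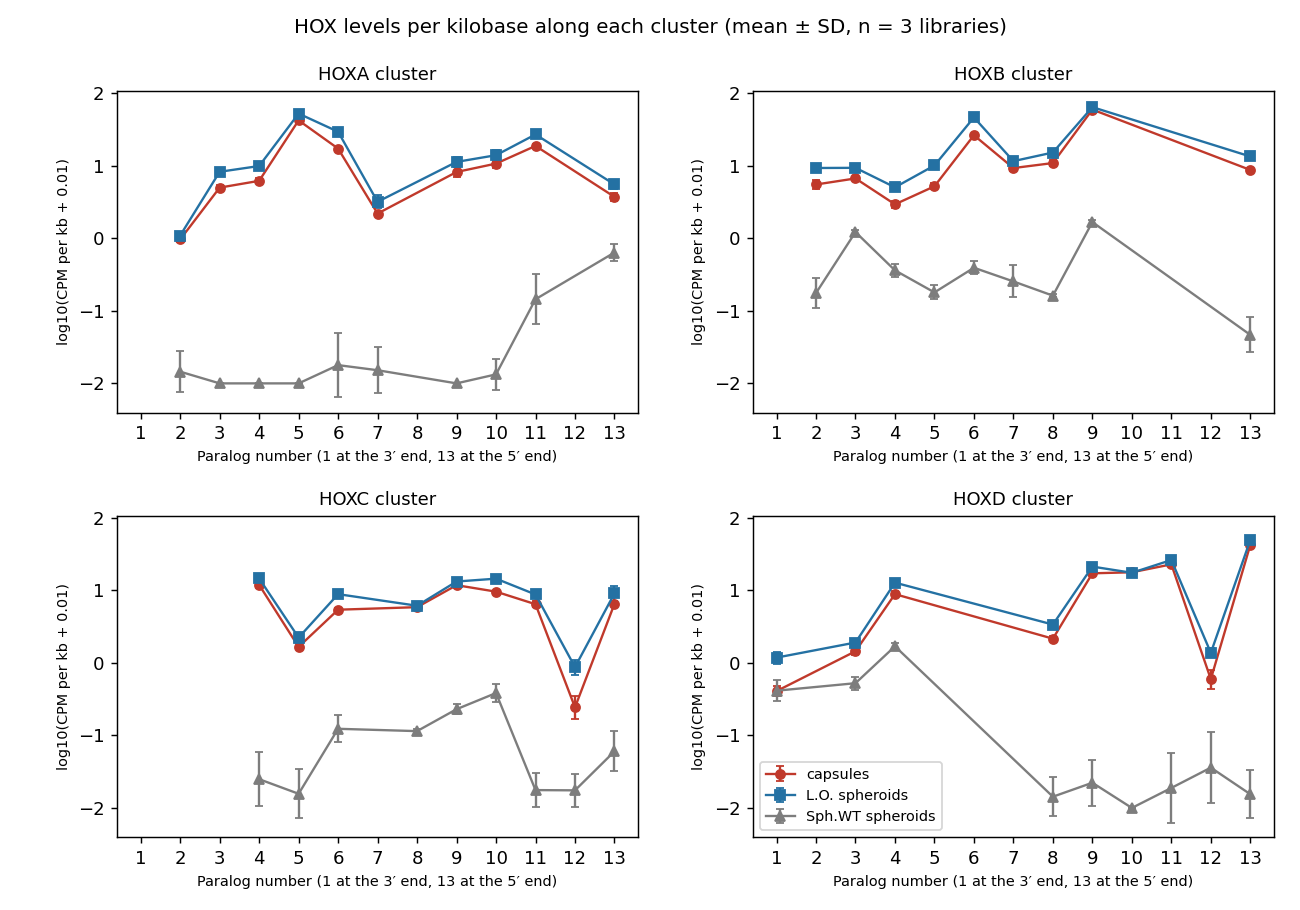
Level of HOX genes per kilobase of joined exons, as log10(CPM per kb + 0.01) (y axis), against its paralog number (x axis), with points and bars for the mean and SD of 3 libraries. Capsule and L.O. lines run close together with peaks at HOXA5, HOXB9 and HOXD13, and the Sph.WT line lies below them except at HOXD1, where it meets the capsule line.

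The HOXA cluster (chromosome 7, minus strand) was on from end to end in capsules. Per kilobase of joined exons HOXA5, which patterns the lung and the neck and upper chest, was the highest of the cluster in capsules and in L.O. spheroids, at 42.0 ± 2.54 CPM per kb in capsules, 52.1 ± 1.498 in L.O. spheroids and 0 in Sph.WT spheroids (SD, n = 3 each). Its levels were 72.9, 66.9 and 75.3 CPM in capsules, 86.1, 91.0 and 89.7 CPM in L.O. spheroids and no counts in any Sph.WT spheroid. HOXA11 followed in capsules at 18.7 ± 1.28 CPM per kb and HOXA6 at 17.2 ± 0.942, and these neighbours in the order overlapped. HOXA11, a gene of the forearm, kidney and uterus, stood at 44.6, 45.0 and 39.7 CPM in capsules, 58.7, 60.04 and 67.6 CPM in L.O. spheroids and 0.352, 0.120 and 0.662 CPM in Sph.WT spheroids. The 3 sets did not overlap for HOXA11, and capsules lay below L.O. spheroids with a log2 fold change of -0.38 (SE 0.0851, adjusted p = 0.00106) by edgeR.

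Toward the 3′ end, HOXA2, needed for the second branchial arch, was the lowest member of the cluster per kilobase in capsules and in L.O. spheroids. It had 2.19, 2.26 and 2.57 CPM in capsules, 2.62, 2.502 and 2.83 CPM in L.O. spheroids and 1, 0 and 0 counts in Sph.WT spheroids, and its capsule and L.O. values overlapped. HOXA3, required for the thymus and parathyroid, had 23.5, 21.2 and 19.6 CPM in capsules, 34.7, 32.9 and 38.7 CPM in L.O. spheroids and no counts in any Sph.WT spheroid. Its log2 fold change against L.O. spheroids was -0.58 (SE 0.0999, adjusted p = 9.04e-05) by edgeR. HOXA6 was lower by nearly the same amount, -0.63 (SE 0.10, adjusted p = 4.35e-05), with 21.2, 23.4 and 21.6 CPM in capsules, 34.4, 35.8 and 43.2 CPM in L.O. spheroids and 0, 0 and 1 counts in Sph.WT spheroids. The 3 sets did not overlap for HOXA3 or HOXA6, with L.O. spheroids the highest and Sph.WT spheroids at 0 or 1 count in each library. HOXA4, which acts in the neck vertebrae in mice, had 11.4, 11.1 and 9.78 CPM in capsules, 15.0, 18.6 and 18.2 CPM in L.O. spheroids and no counts in any Sph.WT spheroid, with -0.54 (SE 0.12, adjusted p = 0.00118) between capsules and L.O. spheroids by edgeR. HOXA7 had 4.92, 5.24 and 5.59 CPM in capsules, 6.97, 6.57 and 9.66 CPM in L.O. spheroids and 0, 0 and 1 counts in Sph.WT spheroids, with -0.41 (SE 0.17, adjusted p = 0.0481) by edgeR.

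HOXA9, a driver of blood progenitors and of some leukaemias, had 24.5, 28.9 and 21.3 CPM in capsules, 30.8, 31.6 and 40.5 CPM in L.O. spheroids and no counts in any Sph.WT spheroid. HOXA10, which acts in the uterus, had 45.9, 33.8 and 39.6 CPM in capsules, 46.9, 46.3 and 63.0 CPM in L.O. spheroids and 1, 0 and 0 counts in Sph.WT spheroids. In CPM the capsule values of both lay below all L.O. values. By edgeR the difference passed the threshold for HOXA9, at -0.32 (SE 0.12, adjusted p = 0.0346), and not for HOXA10, at -0.24 (SE 0.12, adjusted p = 0.0924), or HOXA5, at -0.16 (SE 0.0728, adjusted p = 0.0668). HOXA13, the 5′ member that shapes digits and the genital tract, had 18.6, 16.8 and 21.3 CPM in capsules, 28.6, 32.1 and 23.7 CPM in L.O. spheroids and 2.97, 2.52 and 4.28 CPM in Sph.WT spheroids. It was the one HOXA member that reached 1 CPM in every Sph.WT library, and there it was the highest of the cluster per kilobase, with HOXA11 next. Summed counts of the 8 members from HOXA2 to HOXA10 were 2729, 2649 and 2656 in capsules, 4023, 4242 and 4748 in L.O. spheroids, and 2, 0 and 2 in Sph.WT spheroids. HOXA11 and HOXA13 gave 23.1% ± 0.41 of the cluster's counts in capsules, 23.8% ± 1.34 in L.O. spheroids and 97.9% ± 0.93 in Sph.WT spheroids (SD, n = 3 each). These stretches were drawn after the values were seen.

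The HOXB cluster (chr17:48542655-48728750 in hg38, minus strand) held the member with the highest level per kilobase in capsules. HOXB9, a thoracic gene that also acts in the mammary gland with its paralogs, had 150.0, 155 and 153 CPM in capsules, 164, 174 and 158 CPM in L.O. spheroids and 3.92, 4.36 and 4.58 CPM in Sph.WT spheroids. It stood at 59.1 ± 0.937 CPM per kb in capsules (SD, n = 3). The log2 fold change against L.O. spheroids was 0.0332 (SE 0.0681, adjusted p = 0.706) by edgeR. HOXB6, second in the cluster in capsules at 26.2 ± 0.667 CPM per kb, had 66.4, 69.8 and 68.5 CPM in capsules, 119, 116 and 126 CPM in L.O. spheroids and 1.16, 0.782 and 1.08 CPM in Sph.WT spheroids. Capsules lay well below L.O. spheroids for HOXB6, at -0.67 (SE 0.0714, adjusted p = 4.43e-07) by edgeR. It had the lowest adjusted p of all members in that comparison.

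HOXB3, which supports blood stem cells and hindbrain patterning, had 48.7, 50.3 and 49.7 CPM in capsules, 67.1, 68.9 and 72.3 CPM in L.O. spheroids and 9.01, 8.45 and 9.52 CPM in Sph.WT spheroids. In Sph.WT spheroids it was the most abundant member in CPM and the one that passed 5 CPM in every library. Capsules were lower than L.O. spheroids, at -0.34 (SE 0.0743, adjusted p = 8.45e-04) by edgeR, and their ratio to Sph.WT spheroids in CPM was 5.59 (95% counting interval 5.11 to 6.13). HOXB4, known for expanding blood stem cells, had 11.8, 11.6 and 9.63 CPM in capsules, 19.4, 17.8 and 19.4 CPM in L.O. spheroids and 1.66, 1.14 and 1.20 CPM in Sph.WT spheroids, and its log2 fold change against L.O. spheroids was -0.63 (SE 0.12, adjusted p = 1.90e-04) by edgeR. For HOXB5 the values were 9.54, 11.4 and 10.9 CPM in capsules, 18.7, 21.1 and 21.8 CPM in L.O. spheroids and 0.302, 0.451 and 0.301 CPM in Sph.WT spheroids. Among members of at least 5 CPM it had the lowest value of that comparison, -0.81 (SE 0.11, adjusted p = 1.15e-05) by edgeR.

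HOXB2, at the 3′ edge of the measured stretch, had 14.53, 13.1 and 11.03 CPM in capsules, 19.4, 22.2 and 23.5 CPM in L.O. spheroids and 0.654, 0.361 and 0.241 CPM in Sph.WT spheroids, with -0.60 (SE 0.12, adjusted p = 3.59e-04) against L.O. spheroids by edgeR. The 3 sets did not overlap for HOXB2 to HOXB5, and L.O. spheroids were the highest. HOXB7, which is expressed in many breast tumours, had 14.53, 12.7 and 15.3 CPM in capsules, 16.3, 16.8 and 19.9 CPM in L.O. spheroids and 0.403, 0.210 and 0.602 CPM in Sph.WT spheroids. The capsule and L.O. ranges of HOXB7 did not overlap, but the difference missed the threshold after TMM scaling, at -0.17 (SE 0.12, adjusted p = 0.227) by edgeR. HOXB8, studied for its part in blood progenitors, had 19.8, 22.9 and 24.1 CPM in capsules, 32.1, 30.2 and 30.9 CPM in L.O. spheroids and 0.302, 0.331 and 0.301 CPM in Sph.WT spheroids, with -0.33 (SE 0.0958, adjusted p = 0.00725) against L.O. spheroids by edgeR. HOXB13, the prostate lineage gene at the 5′ edge, had 31.6, 31.4 and 27.7 CPM in capsules, 44.8, 44.8 and 49.4 CPM in L.O. spheroids and 0.252, 0.120 and 0.0602 CPM in Sph.WT spheroids, with -0.47 (SE 0.0885, adjusted p = 2.21e-04) by edgeR. Capsules lay between the other sets for both genes. HOXB was the highest of the 4 clusters in Sph.WT spheroids, where it summed to 17.2 ± 0.917 CPM, against 3.72 ± 1.22 for HOXA, 2.17 ± 0.418 for HOXC and 5.29 ± 0.308 for HOXD (SD, n = 3 each). In capsules the 4 sums were 371.6 ± 5.69 CPM for HOXB, 268.2 ± 8.86 for HOXA, 145.2 ± 4.60 for HOXC and 246.7 ± 6.07 for HOXD.

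The HOXC cluster (chr12:53938831-54056030, plus strand) had the lowest sum of the 4 in each set. HOXC4, HOXC5 and HOXC6 share an annotated 5′ start at 54016888, so reads of the shared exon cannot be assigned to one of them. HOXC4, at the 3′ edge, had 29.7, 35.2 and 31.99 CPM in capsules, 38.3, 39.8 and 40.4 CPM in L.O. spheroids and 1, 0 and 2 counts in Sph.WT spheroids. HOXC9, which marks thoracic motor neurons, had 20.6, 20.5 and 17.9 CPM in capsules, 20.6, 22.3 and 23.4 CPM in L.O. spheroids and 0.302, 0.391 and 0.422 CPM in Sph.WT spheroids. Per kilobase the 2 led the cluster in capsules, at 11.8 ± 1.01 and 11.7 ± 0.898 CPM per kb, with overlapping ranges. HOXC10, a gene of the lumbar region and hindlimb, had 21.6, 22.3 and 22.8 CPM in capsules, 31.9, 34.7 and 34.1 CPM in L.O. spheroids and 0.956, 0.631 and 1.08 CPM in Sph.WT spheroids, and it was highest of the cluster per kilobase in Sph.WT spheroids.

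HOXC10 was lower in capsules than in L.O. spheroids, at -0.45 (SE 0.0893, adjusted p = 3.63e-04) by edgeR, and so was HOXC6, at -0.57 (SE 0.0967, adjusted p = 8.07e-05). HOXC6, a gene of the thorax and mammary gland, had 20.1, 18.0 and 19.0 CPM in capsules, 32.9, 29.1 and 31.6 CPM in L.O. spheroids and 0.352, 0.271 and 0.662 CPM in Sph.WT spheroids. Its 3 sets did not overlap. HOXC8, which directs brachial motor neurons, had 10.3, 12.4 and 10.4 CPM in capsules, 12.1, 10.9 and 11.6 CPM in L.O. spheroids and 0.201, 0.210 and 0.181 CPM in Sph.WT spheroids. The capsule and L.O. values of HOXC8 overlapped, with a log2 fold change of 0.0851 (SE 0.12, adjusted p = 0.589) by edgeR. HOXC5 had 3.41, 3.57 and 3.46 CPM in capsules, 4.09, 4.44 and 5.60 CPM in L.O. spheroids and 0, 2 and 0 counts in Sph.WT spheroids, with -0.29 (SE 0.19, adjusted p = 0.200) by edgeR. HOXC11, a hindlimb gene, had 22.2, 21.8 and 18.8 CPM in capsules, 29.1, 26.2 and 30.1 CPM in L.O. spheroids and 0, 1 and 1 counts in Sph.WT spheroids. HOXC13, the 5′ member that controls hair and nail keratins, had 16.6, 15.4 and 15.1 CPM in capsules, 17.0, 22.6 and 27.2 CPM in L.O. spheroids and 2, 9 and 1 counts in Sph.WT spheroids. Both were lower in capsules than in L.O. spheroids by edgeR, at -0.30 (SE 0.10, adjusted p = 0.0201) for HOXC11 and -0.36 (SE 0.13, adjusted p = 0.0331) for HOXC13. HOXC12, beside HOXC13, was the scarcest member of the cluster, with 9, 8 and 16 counts in capsules, 34, 51 and 53 counts in L.O. spheroids and 0, 1 and 1 counts in Sph.WT spheroids. Those counts gave the lowest fitted log2 fold change against L.O. spheroids of all members, -1.69 (SE 0.31, adjusted p = 1.64e-04) by edgeR.

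The HOXD cluster (chr2:176087487-176190907, plus strand) drew most of its counts from HOXD8 to HOXD13 in capsules and in L.O. spheroids and from HOXD1 to HOXD4 in Sph.WT spheroids. HOXD13, the 5′ member that shapes digits, had 98.6, 92.4 and 91.7 CPM in capsules, 104, 112 and 115 CPM in L.O. spheroids and 0, 0 and 1 counts in Sph.WT spheroids. HOXD11, which acts with HOXA11 in the forearm and kidney, had 46.6, 51.5 and 45.5 CPM in capsules, 52.9, 56.9 and 54.8 CPM in L.O. spheroids and 0, 0 and 2 counts in Sph.WT spheroids. HOXD10, a lumbar gene whose protein is held down by miR-10b in metastatic breast cancer cells, had 47.3, 46.6 and 48.5 CPM in capsules, 49.0, 46.5 and 44.7 CPM in L.O. spheroids and no counts in any Sph.WT spheroid. For these 3 genes the log2 fold change between capsules and L.O. spheroids did not pass the threshold by edgeR, at -0.0775 (SE 0.0724, adjusted p = 0.392), -0.0503 (SE 0.0804, adjusted p = 0.625) and 0.17 (SE 0.0783, adjusted p = 0.0795). HOXD10 was the member with the highest value of that comparison, and its capsule and L.O. values overlapped. HOXD9 had 33.8, 30.9 and 31.0 CPM in capsules, 34.1, 42.0 and 43.0 CPM in L.O. spheroids and 0, 1 and 1 counts in Sph.WT spheroids, with -0.17 (SE 0.0956, adjusted p = 0.150) by edgeR. HOXD8 had 6.21, 5.39 and 5.30 CPM in capsules, 8.70, 8.44 and 9.28 CPM in L.O. spheroids and 1, 0 and 0 counts in Sph.WT spheroids, and it was lower in capsules than in L.O. spheroids, at -0.50 (SE 0.14, adjusted p = 0.00668) by edgeR. Every capsule and L.O. library stood far above the Sph.WT libraries for these 5 genes. Per kilobase the order in capsules was HOXD13 at 42.1 ± 1.70 CPM per kb, HOXD11 at 22.7 ± 1.53, HOXD10 at 17.6 ± 0.352 and HOXD9 at 17.1 ± 0.854, and the last 2 overlapped.

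Toward the 3′ edge, HOXD4, a hindbrain and neck gene, had 13.9, 13.3 and 11.6 CPM in capsules, 17.4, 20.2 and 18.2 CPM in L.O. spheroids and 2.72, 2.25 and 2.41 CPM in Sph.WT spheroids. HOXD3, which overlaps HOXD4 in the annotation and acts in the first neck vertebra, had 4.54, 5.75 and 5.00 CPM in capsules, 6.08, 7.005 and 7.08 CPM in L.O. spheroids and 1.51, 2.29 and 1.75 CPM in Sph.WT spheroids. All capsule values of both lay above the Sph.WT values and below the L.O. values. The ratio of capsules to Sph.WT spheroids in CPM was 5.33 (95% counting interval 4.48 to 6.38) for HOXD4 and 2.64 (95% counting interval 2.11 to 3.30) for HOXD3. HOXD1, at the 3′ end, had 0.908, 0.655 and 0.809 CPM in capsules, 1.86, 2.44 and 2.71 CPM in L.O. spheroids and 1.06, 0.872 and 0.542 CPM in Sph.WT spheroids. Capsule and Sph.WT values of HOXD1 overlapped, with a log2 fold change of -0.37 (SE 0.35, adjusted p = 0.325) by edgeR, and capsules lay below L.O. spheroids, at -1.41 (SE 0.30, adjusted p = 6.83e-04). L.O. spheroids were above Sph.WT spheroids for HOXD1, at 1.05 (SE 0.29, adjusted p = 0.00279) by edgeR. HOXD1, HOXD3 and HOXD4 together gave 7.62% ± 0.38 of the cluster's counts in capsules, 9.54% ± 0.39 in L.O. spheroids and 96.9% ± 1.64 in Sph.WT spheroids (SD, n = 3 each). The 6 members from HOXD8 to HOXD13 had 3080, 3126 and 3033 counts in capsules, 3903, 4281 and 4169 in L.O. spheroids, and 3, 3 and 4 in Sph.WT spheroids. This division too was drawn after the values were seen. HOXD12 had 8, 10 and 15 counts in capsules, 25, 34 and 28 in L.O. spheroids and 2, 2 and 0 in Sph.WT spheroids, with -1.03 (SE 0.32, adjusted p = 0.0108) between capsules and L.O. spheroids by edgeR.

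In Sph.WT spheroids 5 members had no count in any library, HOXA3, HOXA4, HOXA5, HOXA9 and HOXD10, and 13 others had 1 to 3 counts over the 3 libraries. A count of 0 over the group allows up to 3 counts, or 0.043 CPM. Set against that limit, capsules were at least 1666-fold higher for HOXA5, at least 1103-fold for HOXD10, at least 579-fold for HOXA9, at least 498-fold for HOXA3 and at least 251-fold for HOXA4. HOXD13 had 1 count in Sph.WT spheroids, and its ratio in CPM was 6569 (95% counting interval 1178 to 259500). Where Sph.WT levels could be measured, the ratio in CPM was 137 (95% counting interval 89.98 to 219) for HOXA11, 35.6 (95% counting interval 31.7 to 40.1) for HOXB9 and 6.16 (95% counting interval 5.29 to 7.20) for HOXA13. Such limits and intervals hold counting error alone and leave out the spread between libraries. Even counting error may be understated, because several reads can stem from 1 molecule when no molecular identifiers are used.

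The promoters of 2 members with 0 counts in Sph.WT spheroids are shown beside those of 2 members of the same clusters that reached 1 CPM in every Sph.WT library. They come from RefSeq on GRCh38.p14, run 5′ to 3′ from 250 bases before the annotated start to 50 after it, and carry CG dinucleotides in capitals. HOXA9 (chr7:27165488-27165787, minus strand) holds 22 CG and HOXA13 (chr7:27200042-27200341, minus strand) 44. HOXD10 (chr2:176116528-176116827, plus strand) holds 23 and HOXD4 (chr2:176151300-176151599, plus strand) 4.
HOXA9: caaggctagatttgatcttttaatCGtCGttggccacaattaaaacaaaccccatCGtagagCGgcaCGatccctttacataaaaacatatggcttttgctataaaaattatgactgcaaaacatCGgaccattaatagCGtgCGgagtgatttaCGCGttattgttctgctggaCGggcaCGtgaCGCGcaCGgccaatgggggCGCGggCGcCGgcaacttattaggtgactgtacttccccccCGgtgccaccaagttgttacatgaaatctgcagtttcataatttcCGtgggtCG
HOXA13: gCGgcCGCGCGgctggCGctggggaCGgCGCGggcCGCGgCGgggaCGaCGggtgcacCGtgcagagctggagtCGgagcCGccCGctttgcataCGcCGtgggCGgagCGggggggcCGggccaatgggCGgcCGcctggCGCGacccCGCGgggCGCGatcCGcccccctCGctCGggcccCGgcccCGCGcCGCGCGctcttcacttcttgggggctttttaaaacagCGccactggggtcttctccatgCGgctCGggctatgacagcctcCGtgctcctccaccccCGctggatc
HOXD10: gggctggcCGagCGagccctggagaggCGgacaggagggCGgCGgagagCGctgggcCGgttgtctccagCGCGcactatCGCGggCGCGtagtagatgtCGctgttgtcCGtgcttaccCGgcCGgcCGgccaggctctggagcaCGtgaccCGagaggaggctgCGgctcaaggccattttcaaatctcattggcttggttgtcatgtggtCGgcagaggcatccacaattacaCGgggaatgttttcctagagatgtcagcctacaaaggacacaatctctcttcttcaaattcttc
HOXD4: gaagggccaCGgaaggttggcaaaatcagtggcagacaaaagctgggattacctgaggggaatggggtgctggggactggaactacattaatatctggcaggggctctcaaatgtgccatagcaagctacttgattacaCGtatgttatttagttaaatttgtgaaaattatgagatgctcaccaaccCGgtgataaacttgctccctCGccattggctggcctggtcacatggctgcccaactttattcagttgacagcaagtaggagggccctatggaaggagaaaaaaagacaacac
The pair in HOXA and the pair in HOXD therefore differ in opposite directions in CG content. RefSeq's table listed 25 distinct windows for 19 of the 38 members, several of them for HOXA3 and 1 shared by HOXC4 and HOXC5. No HOXB member and no other HOXC member was listed, so the windows describe mainly HOXA and HOXD. The median over those windows was 23 CG in 300 bases, against 14 over 34943 distinct windows of all genes. The letters TGATTNAT, a site of PBX-HOX pairs, stood on either strand in 8.0% of HOX windows and 2.83% of all. TGACAG, a MEIS site, stood in 16.0% and 15.8%, and TATAAA in 5 of the 25 HOX windows and 11.6% of all. With 2, 4 and 5 HOX windows behind the 3 motifs, these shares are descriptions only.

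Noncoding RNAs of the HOX clusters had a row for 16 of 24 listed. Against L.O. spheroids 7 of 15 tested were lower in capsules and 0 higher by edgeR, a share called of 46.7%, near the 50.1% of all genes (25.4% lower), with a median log2 fold change of -0.42 beside -0.00987 over all genes. Against Sph.WT spheroids 11 of 13 tested were higher and 0 lower, a share called of 84.6%, near the 86.1% of all genes (43.2% higher), with a median of 5.99 beside 0.0129 over all genes, and the median was the same with HOTAIRM1 and HOXA-AS3, at 0 in Sph.WT spheroids, set to their lower bound. HOTAIRM1 and HOXA-AS3 passed the filter on low counts only through their capsule counts, as did HOTAIR and HOXA11-AS, which were near 0 in Sph.WT spheroids. Such genes could not have come out lower, so their direction is no test result. Of the 16 with a row, 1 reached 1 CPM in every Sph.WT library. Scaled by library totals, 8 of the noncoding RNAs were lower than in L.O. spheroids and 12 higher than in Sph.WT spheroids. HOTAIRM1, which lies beside HOXA2, had 26.2, 27.9 and 27.6 CPM in capsules, 33.1, 32.5 and 36.5 CPM in L.O. spheroids and no counts in any Sph.WT spheroid. HOTAIR, a transcript of the HOXC cluster studied as a partner of Polycomb in breast cancer, had 13.2, 11.9 and 12.2 CPM in capsules, 22.01, 19.5 and 20.2 CPM in L.O. spheroids and 0.252, 0.0902 and 0 CPM in Sph.WT spheroids. Capsules were below L.O. spheroids for HOTAIR, at -0.58 (SE 0.11, adjusted p = 2.07e-04), and above Sph.WT spheroids, at 6.40 (SE 0.31, adjusted p = 2.28e-13), by edgeR. The direction of the second difference is no test result, because the filter was passed through the capsule counts only. HOXA11-AS, antisense to HOXA11, had 21.0, 24.4 and 19.6 CPM in capsules, 43.1, 44.5 and 49.0 CPM in L.O. spheroids and 0.151, 0.0301 and 0.241 CPM in Sph.WT spheroids, with -0.92 (SE 0.0977, adjusted p = 4.09e-07) against L.O. spheroids by edgeR. Since no strand setting was given, its reads and those of HOXA11 cannot be told apart.

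The 2 tested noncoding RNAs that were not called between capsules and Sph.WT spheroids were HAGLR and HOTTIP. HAGLR, beside HOXD1, had 8.55, 7.50 and 11.9 CPM in capsules, 16.7, 17.0 and 18.2 CPM in L.O. spheroids and 6.44, 7.52 and 7.59 CPM in Sph.WT spheroids. HOTTIP, beyond HOXA13, had 1.21, 0.801 and 1.25 CPM in capsules, 3.65, 3.19 and 2.45 CPM in L.O. spheroids and 1.11, 0.752 and 1.14 CPM in Sph.WT spheroids. Against Sph.WT spheroids the log2 fold changes in capsules were 0.0943 (SE 0.16, adjusted p = 0.582) and -0.11 (SE 0.32, adjusted p = 0.755) by edgeR. Against L.O. spheroids both were lower in capsules, at -0.75 (SE 0.14, adjusted p = 1.88e-04) and -1.36 (SE 0.27, adjusted p = 4.00e-04) by edgeR. The capsule and Sph.WT values of both overlapped. MIR196A1, the miRNA gene 5′ of HOXB9, had 7, 2 and 17 counts in capsules, 6, 4 and 5 in L.O. spheroids and none in Sph.WT spheroids.

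**Figure D5:**
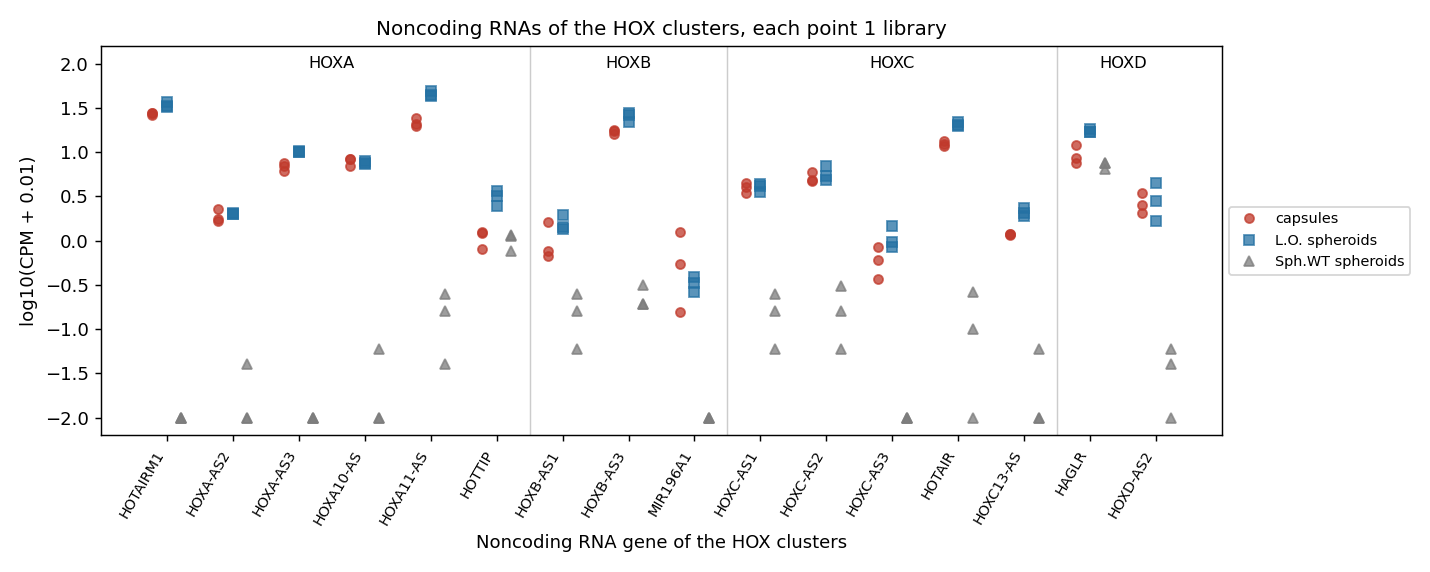
Level of 16 noncoding RNA genes of the HOX clusters, as log10(CPM + 0.01) (y axis), each point 1 library, with capsules left, L.O. spheroids in the middle and Sph.WT spheroids right at each gene. Sph.WT points lie far below the others except at HOTTIP and HAGLR, where they overlap the capsules.

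Genes that flank the clusters were called in both directions. Of 13 with a row, 10 were tested between capsules and Sph.WT spheroids, and by edgeR 5 were higher and 5 lower, where 43.2% of all genes were higher and 42.9% lower, with a median log2 fold change of 0.00824 beside 0.0129 over all genes. SKAP2 and HIBADH, which flank HOXA, were lower in capsules, at -1.72 (SE 0.0888, adjusted p = 6.31e-13) and -1.83 (SE 0.0767, adjusted p = 2.41e-14), and so were LNPK and MTX2, which flank HOXD, at -1.18 (SE 0.0869, adjusted p = 1.71e-10) and -0.77 (SE 0.0819, adjusted p = 4.27e-08) by edgeR. SKAP2 had 34.0, 28.9 and 37.8 CPM in capsules, 53.2, 51.0 and 47.7 CPM in L.O. spheroids and 88.3, 89.7 and 95.9 CPM in Sph.WT spheroids. PRAC2, beside HOXB13, was higher in capsules, at 5.81 (SE 0.65, adjusted p = 8.10e-08) by edgeR, with 1.29, 1.53 and 1.40 CPM in capsules, 3.52, 3.31 and 3.87 CPM in L.O. spheroids and 0, 0 and 0.0602 CPM in Sph.WT spheroids. PRAC2 passed the filter on low counts only through its capsule counts, so its direction is no test result. Against L.O. spheroids 1 flanking gene was higher in capsules and 5 lower of 10 tested, where 24.7% of all genes were higher and 25.4% lower, with a median of -0.22 beside -0.00987, and 1 and 6 by library totals.

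PBX and MEIS genes, which encode partners of HOX proteins, and their relatives were called about as often as all genes against Sph.WT spheroids. Against L.O. spheroids their share called was lower than that of all genes. Among 11 genes of the PBX, MEIS, PKNOX and TGIF families, 5 were higher and 4 lower in capsules than in Sph.WT spheroids by edgeR, a share called of 81.8% beside 86.1% of all genes, with a median log2 fold change of -0.0263 beside 0.0129, and 6 and 3 by library totals, with a median of 0.25. MEIS1, a cofactor that binds with posterior HOX proteins, had 15.4, 13.2 and 14.7 CPM in capsules, 14.1, 16.4 and 13.1 CPM in L.O. spheroids and 0.252, 0.120 and 0.181 CPM in Sph.WT spheroids. The capsule and L.O. values of MEIS1 overlapped and stood far above those of Sph.WT spheroids. PKNOX2 and MEIS3 were also higher, at 6.67 (SE 0.25, adjusted p = 4.86e-15) and 4.58 (SE 0.18, adjusted p = 7.40e-15), and TGIF1, a repressor of the same class, was lower, at -2.24 (SE 0.0958, adjusted p = 3.36e-14) by edgeR. MEIS1 and PKNOX2 (0.101, 0.150 and 0.0602 CPM in Sph.WT spheroids) passed the filter on low counts only through their capsule counts. Their direction is therefore no test result. Of the 11 genes, 8 reached 1 CPM in every Sph.WT library. Against L.O. spheroids 1 of the 11 was higher and 3 lower (36.4% called, beside 50.1% of all genes; median -0.0167 beside -0.00987), 0 and 4 by library totals, with MEIS3 at -0.98 (SE 0.0936, adjusted p = 1.22e-07) by edgeR.

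Genes of the chromatin complexes that silence or maintain HOX genes were expressed in all sets, and each of the 30 Polycomb and 18 trithorax and MLL genes listed passed 1 CPM in every library. Between capsules and Sph.WT spheroids 15 Polycomb genes were higher and 12 lower by edgeR, with a median log2 fold change of 0.19, and 13 trithorax and MLL genes were higher and 1 lower, with a median of 0.51. The shares called, 90% and 77.8%, lay near the 86.1% of all genes (43.2% higher and 42.9% lower, median 0.0129). Library totals gave 17 higher and 9 lower among the Polycomb genes, and 15 and 1 among the trithorax and MLL genes. CBX2, a chromodomain subunit of Polycomb repressive complex 1, was higher in capsules at 2.40 (SE 0.0829, adjusted p = 1.18e-15), and PHF1 and PCGF5 were lower at -2.87 (SE 0.11, adjusted p = 3.76e-15) and -2.74 (SE 0.084, adjusted p = 2.01e-16) by edgeR. EZH2, the histone H3 methyltransferase of Polycomb repressive complex 2, had 69.5, 66.3 and 73.0 CPM in capsules, 64.1, 64.4 and 59.96 CPM in L.O. spheroids and 58.5, 53.2 and 56.4 CPM in Sph.WT spheroids. In CPM its capsule values lay above all Sph.WT values, but after TMM scaling its log2 fold change was 0.0397 (SE 0.0742, adjusted p = 0.621) by edgeR. EZH2 was higher in capsules than in L.O. spheroids, at 0.29 (SE 0.074, adjusted p = 0.00268) by edgeR. Against L.O. spheroids 10 Polycomb genes were higher and 8 lower in capsules, and 6 trithorax and MLL genes were higher and 4 lower, with medians of 0.0248 and -0.00634. The shares called were 60% and 55.6%, beside 50.1% of all genes and a median of -0.00987. By library totals the balance turned, to 4 higher and 13 lower and to 1 higher and 8 lower, around medians of -0.12 and -0.15. Of 10 genes of CTCF and cohesin, which fold the clusters into loops, 9 were higher in capsules than in L.O. spheroids and 0 lower, where 24.7% of all genes were higher and 25.4% lower, with a median of 0.35, and 6 and 0 by library totals. Against Sph.WT spheroids 3 were higher and 5 lower (80% called, beside 86.1% of all genes), with a median of -0.19, and 4 and 4 by library totals, with a median of 0.0845. CTCF itself had 123, 116 and 123 CPM in capsules, 85.9, 93.9 and 92.8 CPM in L.O. spheroids and 73.4, 77.4 and 73.1 CPM in Sph.WT spheroids, so that capsules were above both sets, at 0.56 (SE 0.0702, adjusted p = 3.12e-06) and 0.42 (SE 0.0711, adjusted p = 2.22e-05) by edgeR.

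Retinoic acid, acting through RAR receptors, and the CDX factors switch on HOX genes in the embryo. Of 17 genes of this list with a row, 12 were higher and 4 lower in capsules than in Sph.WT spheroids by edgeR, and 0 were higher and 11 lower than in L.O. spheroids. Of all genes 43.2% were higher and 42.9% lower than in Sph.WT spheroids, and 24.7% higher and 25.4% lower than in L.O. spheroids. The list's median log2 fold change was 2.52 against Sph.WT spheroids, the same with CDX2 and CYP26A1 at their lower bound, beside 0.0129 over all genes, and -0.36 against L.O. spheroids, beside -0.00987. Against Sph.WT spheroids, CDX2, CYP26A1 and RARB passed the filter on low counts only through their capsule counts, so their direction is no test result. Of the 17 genes, 9 reached 1 CPM in every Sph.WT library. By library totals the numbers called were 13 and 4 against Sph.WT spheroids, and 0 and 13 against L.O. spheroids. CDX2, the caudal factor that activates central and posterior HOX genes, had 41.5, 39.4 and 39.7 CPM in capsules, 39.1, 42.3 and 41.5 CPM in L.O. spheroids and no counts in any Sph.WT spheroid. CYP26A1, the retinoic acid-degrading enzyme and a direct target of the receptors, had 7.95, 7.79 and 7.94 CPM in capsules, 13.1, 13.57 and 16.4 CPM in L.O. spheroids and no counts in any Sph.WT spheroid. RARB, a receptor gene that retinoic acid induces, had 12.3, 12.3 and 12.4 CPM in capsules, 17.3, 15.6 and 19.4 CPM in L.O. spheroids and 0.302, 0.150 and 0.361 CPM in Sph.WT spheroids. Capsule and L.O. values overlapped for CDX2, and capsules lay between the other sets for CYP26A1 and RARB. ALDH1A2, which makes retinoic acid, averaged 101 ± 5.47 CPM in capsules, 120.0 ± 2.81 in L.O. spheroids and 0.596 ± 0.0832 in Sph.WT spheroids, while ALDH1A3, another such enzyme, averaged 11.4 ± 0.753, 22.6 ± 1.37 and 64.3 ± 5.35 CPM in the same order (SD, n = 3 each). ALDH1A3 was thus lower in capsules than in either set of spheroids, at -0.85 (SE 0.11, adjusted p = 3.85e-06) against L.O. and -2.77 (SE 0.0971, adjusted p = 1.51e-15) against Sph.WT spheroids by edgeR.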

How the data were processed

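The deposited values were raw counts of reads per gene, whole numbers for 17911 Entrez IDs in 9 columns, as the authors deposited them. The build was hg38 and the tools named were featureCounts and limma, with no version, per the submitters' processing notes. Aligner, annotation and strand handling are not given in the sources used here. Reads from genes that overlap, on one strand or on both, may therefore be mixed (HOXA3, HOXB3 and HOXD3 span neighbours). Counts were scaled to CPM, and to CPM per kilobase with joined exon lengths from GENCODE 29. Coordinates came from RefSeq GRCh38.p14 by Entrez ID. Tests used edgeR 4.0.16 (filterByExpr, TMM, quasi-likelihood) in R 4.3.3, with DESeq2 1.42.0 and limma 3.58.1 as alternatives, and were tested on simulated data. The simulated spread was near that of the fits of capsules against 1 set of spheroids. It was far below that of the pooled fit, which the simulation therefore does not cover. A pass mark was set for edgeR only. Each SE was the absolute log2 fold change divided by the square root of edgeR's F statistic, as the test reports none. Levels were computed in Python 3.11.15 with pandas 2.3.3, numpy 2.4.6 and scipy 1.17.1. The 3 capsule columns matched their samples by name, and the other 6 matched the spheroid group but no size. Members, gene lists and the rule for naming genes (the most changed members per cluster, the 2 most abundant and those at the edges) were chosen with earlier results of these data known. Some genes are not reported here.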

Additional observations from a re-analysis of the deposited data

Results flagged for a closer look

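The total of the second Sph.WT library, 33263076 counts, stood apart from the other 5 spheroid libraries, whose totals ran from 15525725 to 19872918. Its gap to the nearest was 0.755 of the whole range, above Dixon's limit of 0.625 for 6 samples. Chance flags about 1 in 20 groups. The summed HOX level of that library was 26.28 CPM, beside 28.48 and 30.53 CPM in the other Sph.WT libraries.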

How the results depend on the processing

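In the pooled comparison 0 HOX genes were called under every setting run within it, and the count moved to 24 with L.O. spheroids alone and 35 with Sph.WT spheroids alone. The number of all genes called, 639, was 359 by library totals, 4025 by DESeq2, 177 with a 2-fold minimum, 7970 with L.O. spheroids alone, 13909 with Sph.WT spheroids alone, and between 0 and 604 with 1 library left out. A replicate block gave 0 genes. Deviations of same-numbered samples correlated at r from -0.317 to 0.139, and those of samples with unlike numbers at -0.318 to 0.326. No pairing by number was seen, but with 3 libraries in a set the check is too weak to say that there is none. Within L.O. spheroids alone, HOX genes called were 23 by DESeq2, 22 by limma-voom, 21 with the replicate block and 19 to 26 with 1 library left out; a 2-fold minimum gave 3 HOX genes and 1008 genes. Of the 24 members lower than in L.O. spheroids, 17 were called with any 1 library left out, and HOXA7, HOXA9, HOXB8, HOXC11, HOXC13, HOXD4 and HOXD12 lost the call at least once. A 2-fold minimum gave 8344 genes against Sph.WT spheroids and 8688 between the spheroid sets, and the same 35 and 38 members were called there under every setting run, with up to 37 called where the filter let in more. At 5 CPM, 1 HOX gene was detected in Sph.WT spheroids and 1 over all 6 spheroid libraries. HOX log2 fold changes of the pooled fit changed sign with L.O. spheroids alone for these members: HOXA2 -0.0329, HOXA3 -0.58, HOXA4 -0.54, HOXA5 -0.16, HOXA6 -0.63, HOXA7 -0.41, HOXA9 -0.32, HOXA10 -0.24, HOXA11 -0.38, HOXA13 -0.43, HOXB2 -0.60, HOXB3 -0.34, HOXB4 -0.63, HOXB5 -0.81, HOXB6 -0.67, HOXB7 -0.17, HOXB8 -0.33, HOXB13 -0.47, HOXC4 -0.14, HOXC5 -0.29, HOXC6 -0.57, HOXC9 -0.0203, HOXC10 -0.45, HOXC11 -0.30, HOXC13 -0.36, HOXD3 -0.25, HOXD4 -0.38, HOXD8 -0.50, HOXD9 -0.17, HOXD11 -0.0503, HOXD13 -0.0775. In the pooled fit limma-voom turned HOXC12 to 1.12 and HOXD12 to 1.16, and with 1 library left out HOXD12 ran from -0.35 to 0.30 and HOXB5 from -0.0937 to 0.51. Against L.O. spheroids, library totals turned HOXC8 to -0.0614 and HOXB9 to -0.11, and with 1 library left out HOXA2 ran from -0.0945 to 0.0157, HOXC8 from -0.00964 to 0.14 and HOXC9 from -0.0648 to 0.0531. The cause of these shifts was not tested. Depth limits the 19 members under 10 counts in Sph.WT spheroids to bounds or wide intervals.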
